A study of Mus musculus with 4 samples.

Results

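The serotonin-gated and ATP-gated channels described here are 6 genes picked by symbol from the 21937 genes of the deposited table. Htr3a and Htr3b encode subunits of the 5-HT3 receptor, and P2rx2, P2rx4, P2rx5 and P2rx6 encode subunits of P2X receptors. The genes were chosen partly because Htr3b had a lower value in the column set against the control, so every difference between the columns below is a description and not a test. The remaining P2X genes, P2rx1, P2rx3 and P2rx7, are given beside them.

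RNA was sequenced from pooled superior cervical and stellate ganglia, the sympathetic ganglia that serve the head, neck and chest, taken from adult mice (postnatal day 60). Per the labels, the Hand2 mutant was B6.129/SVJHand2flox/del::C57BL/6P1DbhCreERT2 and its control B6.129/SVJHand2flox/+::C57BL/6P1DbhCreERT2. The Gata3 mutant was B6.126/SV129Gata3flox/flox::C57BL/6P1DBhCreERT2 and its control B6.129/SV129Gata3flox/+::C57BL/6P1DbhCreERT2. All 4 groups carried the tamoxifen-dependent Cre recombinase under the promoter of the dopamine beta-hydroxylase gene, which limits recombination to cells that use this promoter, and all received tamoxifen for 10 days. Controls also carried a floxed allele. Each group is 1 pool. The Gata3 mutant pool held 32 ganglia from 8 mice and the design text describes them as rudiments, while the Hand2 mutant pool and both control pools held 16 ganglia from 4 mice each.

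The table holds a single comparison of 2 columns and names neither a line nor a sample. The column set against the control is headed as the second group mean of a DESeq comparison and is called column B here. By the name of the sheet column B should be the mutant side. No genotype was assigned to it from its values. Values are normalised expression values with no stated unit, depth is unknown, and with 1 column a side no difference has a replicate check. "Higher" and "lower" describe column B relative to the control column. In pooled tissue, fewer cells of a type and less RNA per cell cannot be told apart.

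The columns differed in Hand2 and in sex-linked genes. Hand2 had 2001 in column B and 4749 in the control column, 2.37-fold lower, and Gata3 had 1050 in column B and 1105 in the control column, a ratio of 0.950. These values are sums over whole genes, which can include exons that Cre leaves in place. Xist, the RNA of the inactive X chromosome, had 1595 in column B and 114 in the control column. Kdm5d, Uty, Eif2s3y and Ddx3y, all on the Y chromosome, were listed at 0 in column B, against 282, 483, 587 and 1206 in the control column. These transcripts differ in the directions that separate female from male mice. Xist was not at 0 in the control column, so whether that column came from males only cannot be told. In this table sex and genotype cannot be told apart. All values summed to 19135221 in column B and 19343986 in the control column.

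5-HT3 receptors are cation channels of the Cys-loop family, the family of the nicotinic acetylcholine receptors, and open when serotonin binds. The 5-HT3A subunit forms channels by itself, whereas 5-HT3B forms functional channels only together with 5-HT3A and changes their conductance. P2X receptors form a separate family of cation channels that open when extracellular ATP binds. Serotonin and ATP both depolarise sympathetic neurons through these channels, beside the nicotinic transmission that drives the ganglion.

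The 5-HT3 genes were among the abundant transcripts of these ganglia, and both had lower values in column B. Htr3a, the subunit that can form channels alone, had a value of 15603 in column B and 20459 in the control column. Its ratio of B to control was 0.763, a log2 ratio of -0.39 with a pseudocount of 1. Htr3b had 3610 in column B and 5460 in the control column, a ratio of 0.661 and a log2 ratio of -0.60. Htr3b thus had the smallest ratio of the 6 genes, as the choice of the genes already used.

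P2rx2, P2rx5 and P2rx6 had lower values in column B, and P2rx4 was close to its control value. P2rx2, a subunit of neuronal ATP-gated channels that forms channels alone or with P2X3, had 278 in column B and 370 in the control column, a ratio of 0.751. P2rx4, a subunit also found in macrophages and on lysosomal membranes, had 614 in column B and 588 in the control column, a ratio of 1.04. It was the only gene of the 6 with a higher value in column B. P2rx5, which encodes a subunit also known from muscle, had 19 in column B and 27 in the control column. P2rx6, whose subunit forms channels mainly with other P2X subunits, had 29 in column B and 34 in the control column. P2rx5 and P2rx6 lay under a mean value of 50, the minimum used for calls below.

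**Figure D1:**
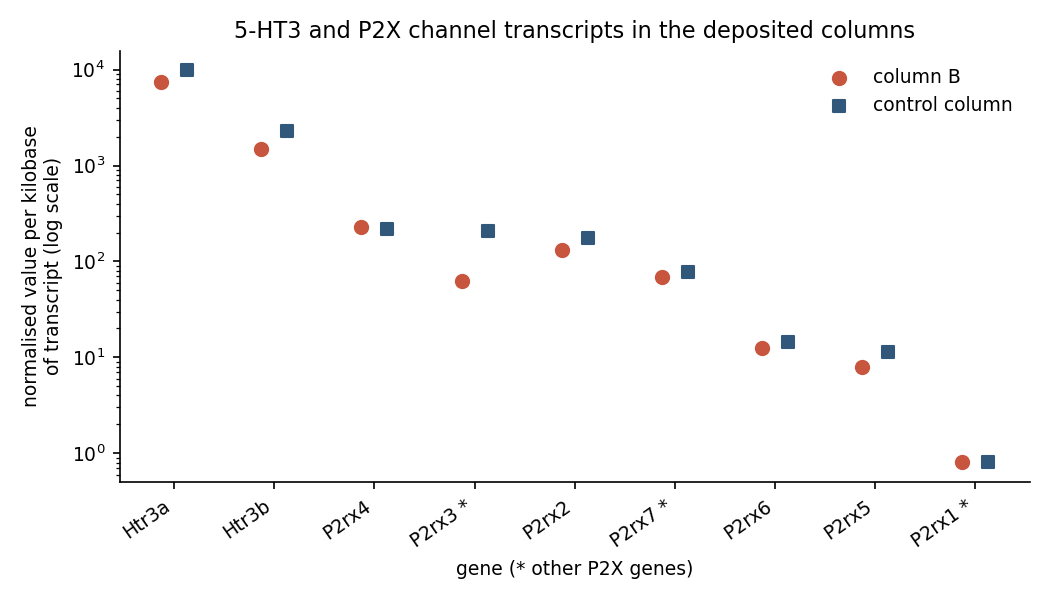
Normalised value per kilobase of transcript (log axis) of the 5-HT3 and P2X genes in column B (circles) and the control column (squares), ordered by the control column, with 1 value per column and no error. Htr3a and Htr3b stand above every P2X gene in both columns, and P2rx3 shows the widest gap between the columns.

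To set the levels of different genes side by side, values were divided by the length of the longest protein-coding transcript. Htr3a had the highest level of the 6, with 7494 per kilobase in column B and 9827 per kilobase in the control column. In column B 99.1% of the 10771 genes that had a known length and averaged 50 or more over the columns had a lower level per kilobase, and in the control column 99.4% did. Htr3b followed with 1497 per kilobase in column B and 2265 per kilobase in the control column, above 92.1% of those genes in column B and 95.1% in the control column. The level of Htr3a was 5.01 times that of Htr3b in column B and 4.34 times in the control column. By coding length in place of transcript length these multiples were 3.86 in column B and 3.35 in the control column.

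Below the 5-HT3 genes, P2rx4 had 227 per kilobase in column B and 218 in the control column, above 53.7% of those genes in column B and 52.7% in the control column. P2rx2 had 133 per kilobase in column B and 177 in the control column. P2rx6 and P2rx5, whose means lay under the minimum for that set of genes, were lower still, with 12.4 and 7.93 per kilobase in column B and 14.5 and 11.3 in the control column. The order Htr3a, Htr3b, P2rx4, P2rx2, P2rx6, P2rx5 was the same in both columns and by coding length. Without replicates, neighbours such as P2rx4 and P2rx2 or P2rx6 and P2rx5 could not be tested against a spread.

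Among all 7 P2X genes the make-up of the summed level per kilobase differed between the columns, mainly through P2rx3. P2rx3, a channel subunit of sensory neurons, had 113 in column B and 377 in the control column, a 3.34-fold lower value. It made up 12.2% of the P2X level per kilobase in column B and 29.5% in the control column. The share of P2rx4 was 44.3% in column B and 30.8% in the control column, and that of P2rx2 was 25.9% in column B and 25.0% in the control column. P2rx7 made up 13.5% in column B and 10.9% in the control column. By coding length the shares in column B and the control column were 9.12% and 23.7% for P2rx3 and 50.7% and 37.9% for P2rx4. They were 17.9% and 18.6% for P2rx2, and 18.4% and 16.0% for P2rx7. The direction for P2rx2 and its place beside P2rx7 in column B thus depended on the length used. P2rx7, a subunit of glia and macrophages, had 341 in column B and 381 in the control column, and P2rx1, a subunit of smooth muscle and platelets, had 2 in each. An exon of P2rx3 overlaps the gene Ssrp1 on the opposite strand in GENCODE M21, and no strand setting of the counting is stated in the sources used here. Its value could therefore include reads of Ssrp1. P2rx7 overlaps the microRNA gene Mir8115 on its own strand. None of the 6 channel genes overlaps the exons of another gene in that annotation.

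The promoter of Htr3b is shown because Htr3b had the smallest ratio of the 6 and because Hand2, the gene deleted in 1 of the lines, encodes a basic helix-loop-helix protein, a class that binds the E-box letters CANNTG. The window is the 250 bases before the start of the gene in RefSeq, build GRCm38.p6, chr9:48964991-48965240 on the minus strand. The submitters' processing notes name mm9, and the window was matched by symbol, not by coordinates. Capitals mark the E-box.
Htr3b: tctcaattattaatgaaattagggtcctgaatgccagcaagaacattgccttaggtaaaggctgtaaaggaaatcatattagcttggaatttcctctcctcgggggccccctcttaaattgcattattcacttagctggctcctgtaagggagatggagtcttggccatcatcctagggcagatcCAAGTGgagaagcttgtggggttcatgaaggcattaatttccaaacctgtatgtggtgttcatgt

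This window holds 1 match to CANNTG, with the letters CAAGTG, whose first base lies 65 bases before the start. CANNTG reads the same on both strands, and 66.2% of the 32851 windows of the same length hold at least 1 match. P2rx4, whose value was slightly higher in column B, also had 1 match, CAACTG, 211 bases before its start, and P2rx6 had 0. The letters CATCTG, searched on both strands and a special case of CANNTG, occurred in none of these 3 windows and in 14.4% of all windows. A match is a description of letters and not of binding. The columns name no line, and no letters were searched for Gata3, the gene deleted in the other line. The windows of Htr3a, P2rx2 and P2rx5 were not analysed here.

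The size of the differences can be read against all genes. Over the 12043 genes whose column mean was 50 or more, the median log2 ratio was 0.0026 and the SD across genes was 0.31, and 48.8% had a lower value in column B. At a 2-fold ratio on the log2 scale with a pseudocount of 1, 54 genes (0.448%) were lower and 4 (0.0332%) were higher. Of the 4 channel genes with such a mean, 0 were past 2-fold in either direction. P2rx5 and P2rx6, whose means lay under 50, were not past 2-fold either. At 1.5-fold, 177 genes (1.47%) were lower and 82 (0.681%) higher. Of the 6, only Htr3b was past 1.5-fold lower, by a narrow margin at 1.51-fold on the plain ratio, and it was not past it once both columns were scaled to the same sum. None was past 1.5-fold higher. Since these genes were chosen with this comparison known, nothing is read from their counts.

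**Figure D2:**
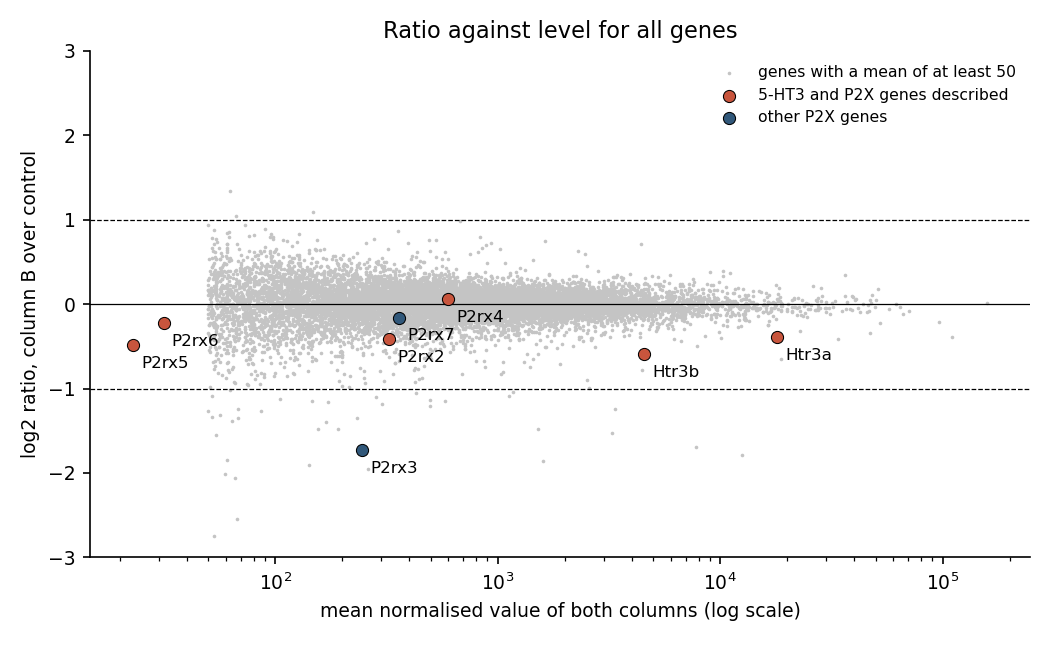
Log2 ratio of column B over control (vertical) against the mean normalised value (horizontal, log axis), with 1 grey point for each gene with a mean of at least 50, the 6 channel genes in red and other P2X genes in blue. P2rx1 and 15 genes outside the plotted range are not drawn, and the dashed lines mark 2-fold. Htr3a and Htr3b lie below most genes of like level, P2rx2 lies in the lower part of a wide cloud and P2rx4 near 0.

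Ratios scattered more among genes of low value, so a ratio of one size stood out differently by level. Among 677 genes with a mean of at least 5000 the SD of the log2 ratio was 0.15, and 9 of them, Htr3a included, had a ratio as low as that of Htr3a. Among 6145 genes with a mean from 500 to under 5000 the SD was 0.21, and 24, Htr3b included, had a ratio as low as that of Htr3b. Among 5221 genes with a mean from 50 to under 500 the SD was 0.41, and 316 of them (6.05%) had a ratio as low as that of P2rx2. The ratios of Htr3a and P2rx2 were nearly equal, at 0.763 and 0.751. The share of genes in the same range of mean with as low a ratio was 1.33% for Htr3a and 6.05% for P2rx2. These ranges are broad, and shares among genes nearer in mean were not computed. The SDs are across genes and are no measure of replicate error. Htr3b was chosen partly for its lower value in column B. Its low place among genes of its range follows in part from that choice, and nothing is read from it.

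The authors' deposited table gives Htr3b an adjusted p of 0.00337 and Htr3a one of 0.211, from unadjusted p of 7.93e-06 and 0.00111. In the authors' deposited table P2rx3 has an adjusted p of 5.79e-05. In it P2rx2, P2rx4, P2rx5 and P2rx6 all have an adjusted p of 1, as do 99.0% of the genes with a p-value. A value so widely shared does not show that these genes are unchanged. There, 62 of the 16990 genes with a p-value (0.365%) are under 0.05, 54 of them (0.318%) lower in column B. The sources used here do not state how many libraries stand behind these p-values, and they belong to the comparison on which Htr3b was picked.

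Genes of like pattern were taken as the 3 nearest in log2 ratio among the 500 nearest in rank of mean value. With only 2 columns this is a weak measure. For Htr3a they were Slc6a2 (log2 ratio -0.39), Chgb (-0.40) and Susd2 (-0.37). Near the top of the ranking such genes are not of like level. The means of these genes were 110568, 10099 and 8558, against 18031 for Htr3a. For Htr3b the nearest, Srrm2 (-0.78), Nek1 (-0.39) and Rph3a (-0.37), differed from it by 0.19, 0.20 and 0.23 on the log2 scale. Htr3b was chosen partly for its lower value in column B, so its distance from them follows in part from that choice. Nothing is read from it. For P2rx2 they were Gpr61, Cnr1 and Nckap5l, and for P2rx4 Diap1, Tmem41a and D1Bwg0212e.

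Genes that make, carry and break down serotonin were spread around a ratio of 1. Of 8 listed genes 6 had a mean of at least 50, 3 of them higher and 3 lower in column B, with a median log2 ratio of 0.0033. The enzyme genes Ddc, shared with catecholamine synthesis, and Maoa, which breaks down monoamines, had the highest means. Ddc had 37687 in column B and 36977 in the control column, and Maoa had 37734 in column B and 35262 in the control column. Slc18a1, a vesicular monoamine transporter gene, was the only one past 1.5-fold, with 314 in column B and 533 in the control column. Slc6a4, the serotonin transporter gene, had 835 in column B and 648 in the control column. The serotonin synthesis genes Tph1 and Tph2 had values of 15 and 4 in column B and 18 and 3 in the control column.

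Metabotropic serotonin receptors, which signal through G proteins, had low values. Only Htr5a of 12 genes reached a mean of 50, with 101 in column B and 123 in the control column. Htr1d came next with 24 in column B and 20 in the control column, and Htr1a was listed at 0 in both. Of the genes for chaperones of Cys-loop receptors, Ric3 had 2111 in column B and 2091 in the control column, and Tmem35a, listed under its older symbol Tmem35, had 3265 in column B and 2833 in the control column.

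The nicotinic subunits of ganglionic transmission, relatives of the 5-HT3 subunits, had ratios nearer to 1 than Htr3a for all 5 subunits with a mean of at least 50. Chrna3 had 18804 in column B and 19125 in the control column, a log2 ratio of -0.02. Chrnb4 had 9085 in column B and 9063 in the control column, and Chrnb2 had 2145 in column B and 2169 in the control column. Chrna7 had 962 in column B and 819 in the control column, and Chrna5 had 1384 in column B and 1283 in the control column. Of these 5 subunits 3 were higher and 2 lower, and none was past 1.5-fold. Chrna4 was listed at 0 in column B and had 9 in the control column. The difference between the ratios of the nicotinic and the 5-HT3 genes could not be tested with 1 column a side.

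**Figure D3:**
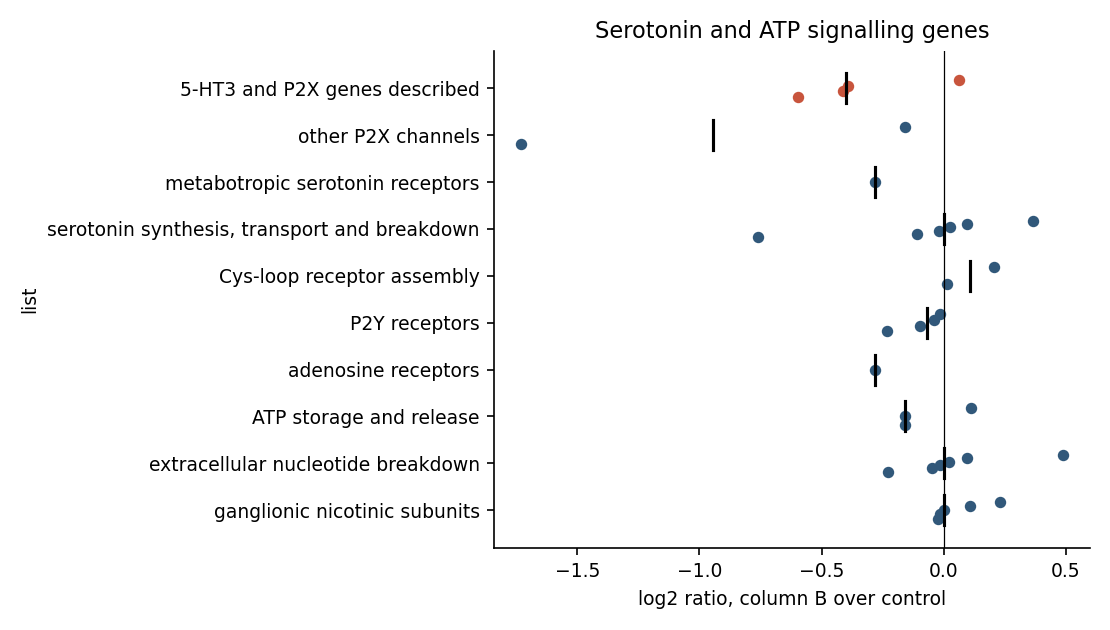
Log2 ratio of column B over control (horizontal) for genes averaging 50 or more in each list of serotonin and ATP signalling genes (rows), with 1 point per gene and a vertical bar at each list's median. The P2X gene at the far left is P2rx3, and the nicotinic subunits lie close to 0 or above it.

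Genes that store, release and break down ATP had members in either direction. Slc17a9, which encodes the vesicular nucleotide transporter, had only 1 in column B and 3 in the control column. The large-pore channel genes Panx1 and Panx2 had 934 and 710 in column B and 864 and 792 in the control column. Of 6 genes of this list 3 had a mean of at least 50, 1 higher and 2 lower, and none was past 1.5-fold. The ectonucleotidase genes Entpd3 and Entpd2, whose enzymes hydrolyse extracellular ATP, had 3458 and 1172 in column B and 3496 and 1155 in the control column. Entpd1, whose enzyme also hydrolyses ATP, had 257 in column B and 183 in the control column, a ratio of 1.40. Nt5e, which makes adenosine from AMP, had 56 in column B and 36 in the control column, under the minimum mean. Of the 10 listed breakdown genes 6 had a mean of at least 50, 3 higher and 3 lower, and none was past 1.5-fold.

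No G protein-coupled receptor gene for nucleotides or adenosine with a mean of at least 50 was past 1.5-fold. Of 8 P2Y receptor genes 4 had such a mean, and their ratios lay between 0.848 for P2ry2 and 0.989 for P2ry1, with a median log2 ratio of -0.07. P2ry13, under that mean, had 41 in column B and 35 in the control column. The highest of them, P2ry6 and P2ry12, had 284 and 189 in column B and 304 and 194 in the control column. Adora1, the A1 adenosine receptor gene, had 282 in column B and 343 in the control column, and Adora2a had 26 in column B and 30 in the control column.

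Some of these channels are also made by other cells, and marker genes of such cells differed between the same columns. The noradrenergic markers were all present, with Dbh at 89194 in column B and 102922 in the control column, and the 9 markers summed to 315105 in column B and 359392 in the control column, with a median log2 ratio of -0.09. The ratio of these sums was 0.877. Of the 9 markers 3 were higher and 6 lower in column B, and none was past 1.5-fold. Slc6a2, the noradrenaline transporter gene, had the lowest ratio of them, 0.765, with 95865 in column B and 125271 in the control column. Npy had the highest, 1.29, with 12494 in column B and 9658 in the control column. The part of neuron content in the channel values was not tested. Sensory neurons make P2rx3, P2rx2, Htr3a and Htr3b as well, and the summed values of 9 sensory markers were 175 in column B and 638 in the control column. All 3 sensory markers with a mean of at least 50 were past 2-fold lower, among them Slc17a6 with 7 in column B and 128 in the control column. The defining sensory markers Prdm12 and Mrgprd were listed at 0 in both columns, and Calca had 33 in column B and 25 in the control column. The part of sensory neurons in the values of the channel genes was not tested.

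Skeletal muscle markers, which bear on P2rx5 and P2rx6, summed to 161 in column B and 2001 in the control column, with all 10 markers of a mean of at least 50 past 1.5-fold lower. Macrophage markers, which bear on P2rx4 and P2rx7, summed to 4319 in column B and 3164 in the control column, and 13 of 13 were higher, 3 of them past 1.5-fold. P2rx4 was 1.04 times and P2rx7 0.895 times its control value. Satellite glia and Schwann cell markers summed to 29902 in column B and 26588 in the control column. Endothelial and smooth muscle markers summed to 1172 in column B and 1180 in the control column, and the 3 carotid body markers to 2619 in column B and 2908 in the control column, of which Olfr78 made up 2592 in column B and 2880 in the control column. The part of these cells in the channel values was not tested.

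**Figure D4:**
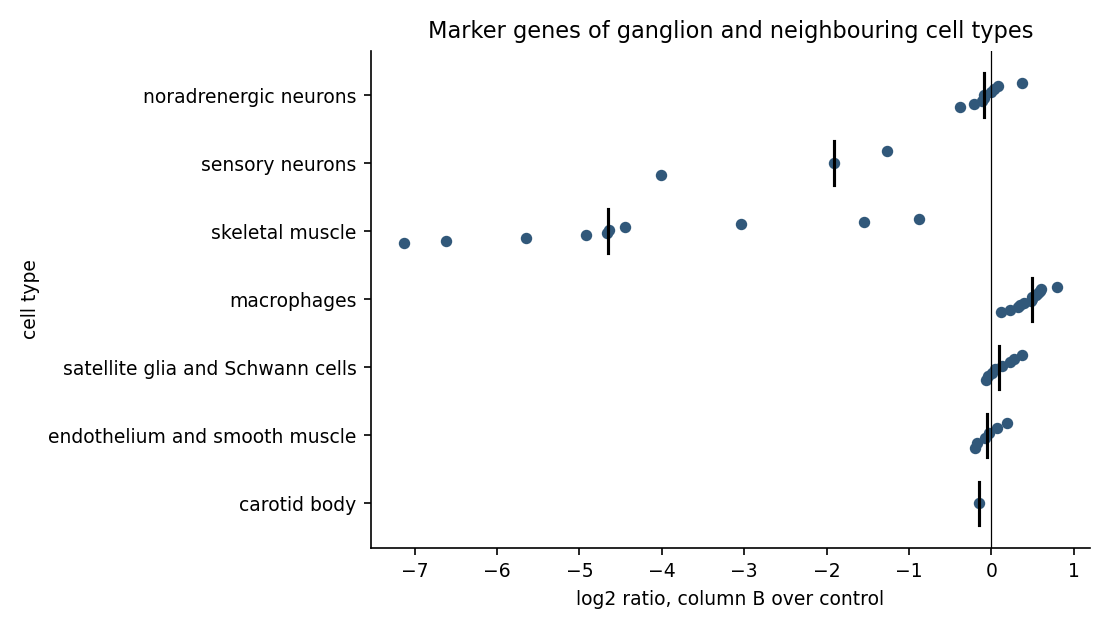
Log2 ratio of column B over control (horizontal) for marker genes averaging 50 or more in each cell type (rows), with 1 point per gene and a vertical bar at the median. Skeletal muscle and sensory neuron markers lie far to the left, macrophage markers to the right of 0, and noradrenergic markers around 0.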

How the data were processed

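TopHat2 2.0.8, HTSeq 0.5.4p1, SAMtools 0.1.19, DESeq without a version and the build mm9 appear in the submitters' processing notes, with no role or settings. Per the file headers, the score values deposited by the authors are group means of a DESeq comparison, in which reads are divided by size factors. They are whole numbers with no stated unit and were not used as counts. The deposited column headed as mutant expression equals the mean of the other columns in all 21937 genes and was used only for this check. The ratio (fold) column, the p-value and the adjusted p-value are the authors' own, per the file headers.

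Log2 ratios were computed with a pseudocount of 1, so ratios of genes with low values are understated, and calls needed a mean of 50 or more and 2-fold. No p-value was computed, as each side has 1 column. The members and gene lists were chosen with earlier results of these data known. Of 127 list entries 126 matched a symbol, 2 of them through an older symbol, and the sensory marker Drgx matched none. All P2X and 5-HT3 genes were named, and in each pathway list the 2 genes of highest mean and every gene past 1.5-fold at a mean of 50 or more. Slc6a4, Tph1, Tph2, Htr1a, Slc17a9, P2ry1, P2ry2, P2ry13, Entpd1, Nt5e, the nicotinic genes other than Chrna3 and Chrnb4, and the single marker genes were named after their values were seen. Transcript lengths came from GENCODE M21 and promoters from RefSeq. The call rule was tested on simulated data with Python 3.11.15 and pandas 2.3.3.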

Additional observations from a re-analysis of the deposited data

How the results depend on the processing

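No paired analysis was possible because the table has 1 column a side and no replicates. The settings were a pseudocount of 5 or 0, and both columns scaled to the same sum or upper quartile. A pseudocount added to both columns cannot change the direction of a ratio. The scalings moved the median of all genes by at most 0.016 on the log2 scale. That is less than the smallest log2 ratio of the 6 channel genes, 0.062 for P2rx4, so no direction changed. Kept directions are therefore no evidence that the differences would repeat. The median over the 4 channel genes with a mean of at least 50 ranged from -0.40 to -0.39 under these settings, and 0 channel genes were past 2-fold under any of them, with a minimum mean of 20 or with none. The counts over all genes depended on the minimum. With a minimum mean of 20 there were 110 lower and 22 higher genes, and with none 1141 lower and 780 higher, against 54 lower and 4 higher at 50. At 1.5-fold there were 177 lower and 82 higher genes and 1 lower channel gene, Htr3b. In settings added after seeing the data, at 1.5-fold, scaling to the same sum gave 167 lower and 94 higher genes and 0 channel genes. Scaling to the same upper quartile gave 177 lower, 81 higher and 1 channel gene, and a pseudocount of 5 gave 168 lower, 76 higher and 1 channel gene. The order of levels per kilobase was the same by coding length for all 6. Depth is unknown, so how far it limits P2rx5 and P2rx6 cannot be given.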
